A study of Mus musculus with 8 samples.

Results

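Glycolysis splits glucose into pyruvate in the cytosol, and lactate dehydrogenase turns pyruvate into lactate while it restores the NAD+ that the pathway uses up. Most of its steps are served by several isozymes from different genes, and fibroblasts grown in glucose-rich medium express the pathway strongly. Arsenite binds thiol groups of proteins and acts as an oxidative stressor. In this series the 3′ ends of mRNAs were counted in mouse NIH3T3 cells, an established embryonic fibroblast line, before, during and after arsenite stress. A list of 10 enzymes was followed, Hk2, Gpi1, Pfkl, Aldoa, Tpi1, Gapdh, Pgk1, Pgam1, Eno1 and Ldha, and genes were taken where a row was present in each of the 3 tables of genes. This left 9 enzymes of the 10690 genes present in at least 1 table. Gapdh, the dehydrogenase between Tpi1 and Pgk1, had no row in the tables used here and was not analysed here.

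NT cells received no arsenite. AS cells were kept in 250 μM sodium arsenite for 1 h, and RC4 and RC8 cells were given the same treatment and then 4 h and 8 h in normal medium without arsenite. The labels name no altered gene in any of the 4 groups, and each group has 1 library made with QuantSeq FWD, a kit that primes on the poly(A) tail and reads just upstream of it. Each difference therefore has no replicate check, no p value was computed, and the intervals below (95%) cover counting error alone. No molecular identifiers are described for the reads, so they are not independent molecules and the intervals may be too narrow.

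Depth was 22.4 to 23.0 M reads on genes per library, and levels are given in RPM, the reads of a gene per M reads on genes, so that an RPM is a share of the library. Fewer cells of a type and less RNA per cell cannot be told apart on this scale. The libraries followed their labels. Of 7 arsenite-inducible genes with a row, 4 were at least 1.5-fold higher in AS, 6 at RC4 and 6 at RC8. Of all genes 1.88%, 8.04% and 11.3% were that much higher. Hspa1b, an inducible heat shock protein, was at 42.3 RPM in NT, 218 in AS, 2369 at RC4 and 90.4 at RC8. The cells also carried fibroblast markers. Of 12 markers 11 had a row, and their summed level was 15312 RPM in NT, 15898 in AS, 12115 at RC4 and 9226 at RC8, most of it from S100a4 (10272 RPM in NT, 10867 in AS, 8089 at RC4 and 5715 at RC8). Markers at least 1.5-fold lower than NT numbered 0 in AS, 5 at RC4 and 7 at RC8, where 11.4%, 31.8% and 11.9% of all genes were. Relative to the median gene the number at RC4 was 3, where 17.4% of all genes were that much lower. The markers did not all move together, since 6 of the 11 were below NT in AS while the sum was above it, and Dcn was 1.253-fold of NT at RC8. Of 15 markers of epithelium, leukocytes, endothelium and muscle, Cd14 alone had a row. The part that these fibroblast markers have in the levels below was not tested.

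The enzymes departed from NT mainly in recovery. Hk2, the hexokinase that commits glucose to the cell, was 1.43-fold higher at RC4 than in NT, and Ldha, the A subunit of lactate dehydrogenase, was 0.592-fold of NT at RC8. Pfkl and Pgam1, at lower read numbers, were below NT at RC4 (0.727-fold and 0.594-fold) and at RC8 (0.680-fold and 0.628-fold). Aldoa, Tpi1 and Pgk1 were slightly above NT in AS, and all 9 enzymes were below NT at RC8. The 9 enzymes together took 2126 RPM in NT and 2302 in AS, 2111 at RC4 and 1729 at RC8. The summed level was thus 1.08-fold of NT in AS (1.07 to 1.096), 0.990-fold at RC4 (0.978 to 1.00) and 0.813-fold at RC8 (0.802 to 0.824). Most of the sum came from Ldha (628 RPM in NT, 372 at RC8), Pgk1 (572 and 558) and Tpi1 (403 and 324).

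**Figure D1:**
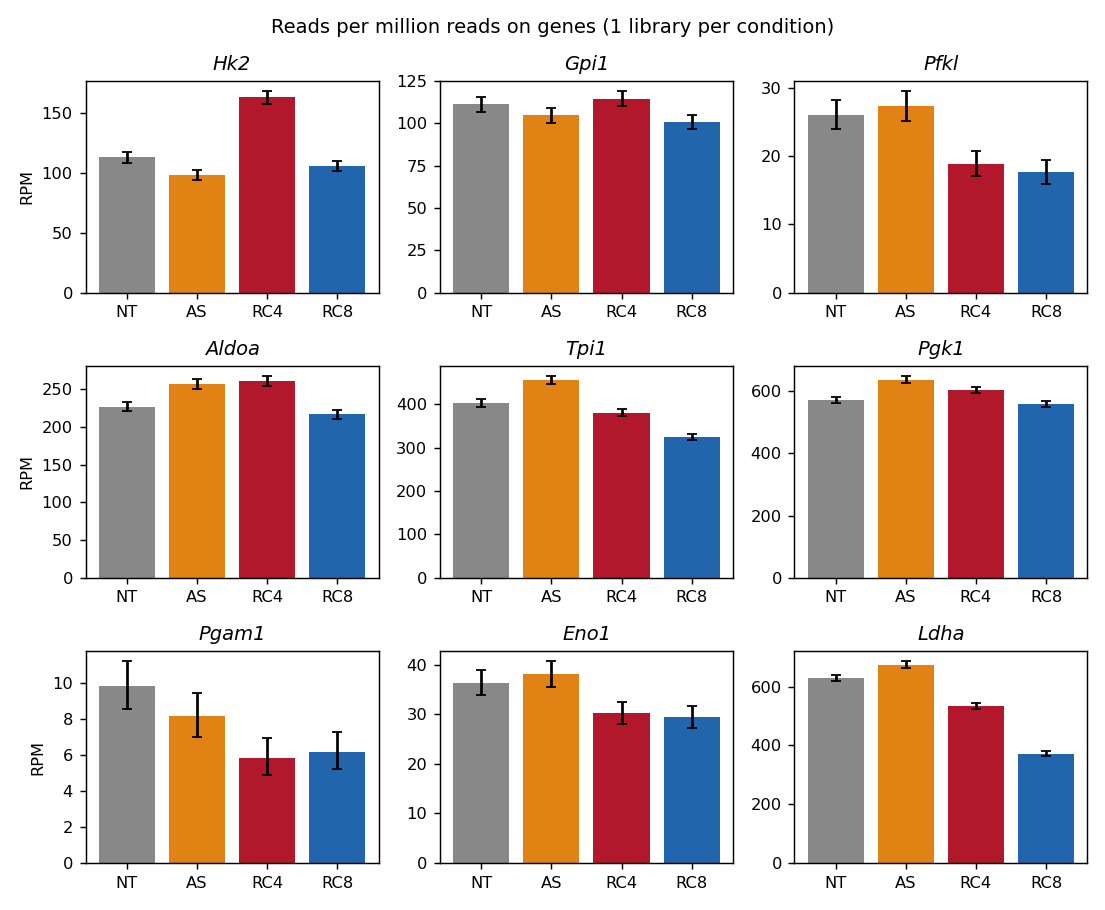
RPM of the 9 enzymes in the order of the pathway, with 1 bar per library and exact 95% Poisson intervals for counting error. Each panel has its own axis from 0. Hk2 is highest at RC4 (163 RPM), and Ldha is lowest at RC8 (372 RPM).

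In AS none of the 9 enzymes was 1.5-fold above or below NT, against 1.88% of the 10452 genes above and 11.4% below. In RC4 no enzyme was 1.5-fold higher and 1, Pgam1, was 1.5-fold lower, against 8.04% and 31.8% of 10081 genes. In RC8 no enzyme was 1.5-fold higher and 2, Ldha and Pgam1, were 1.5-fold lower, against 11.3% and 11.9% of 10441 genes. The median log2 change of the enzymes was 0.07 in AS, −0.09 at RC4 and −0.30 at RC8, beside −0.04, −0.30 and 0.01 for all genes. Enzymes above NT numbered 6 in AS, 4 at RC4 and 0 at RC8, while 5283 of 10441 genes were above NT at RC8. The RC4 library needs a second scale, because its median gene lies 0.30 below NT on the log2 scale. With TMM factors, which leave the median gene at −0.01, 14.6% of genes were 1.5-fold higher and 18.0% lower at RC4. Relative to the median gene itself the summed level of the enzymes was 0.29 above NT, Hk2 was past 1.5-fold, and Pgam1 was not. For RC4 the log2 change relative to the median gene is given for each enzyme below.

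**Figure D2:**
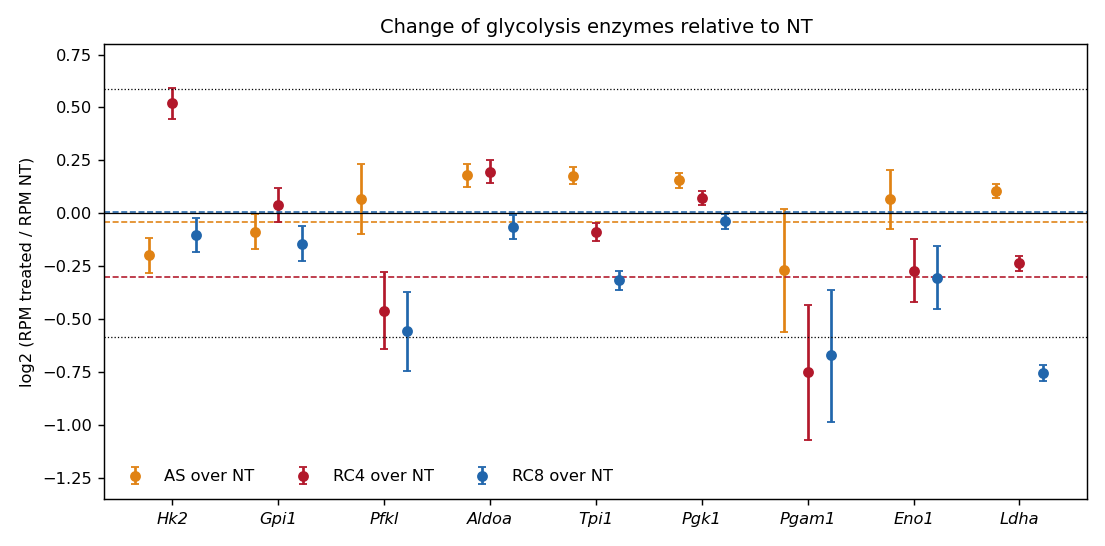
Log2 ratio of RPM in AS, RC4 and RC8 over NT for the 9 enzymes, with 95% counting intervals. Dashed lines are the median of all genes in the comparison of that colour, and dotted lines mark 1.5-fold. All RC8 points lie below 0, and most RC4 points lie above the RC4 median of −0.30.

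Hk2 encodes the inducible hexokinase that phosphorylates glucose. Its level was 113 RPM in NT, 98.3 in AS, 163 at RC4 and 105 at RC8. RC4 stood above the other libraries, and AS and RC8 were slightly below NT. The fold over NT was 0.871 in AS (0.822 to 0.922), 1.43 at RC4 (1.36 to 1.51) and 0.932 at RC8 (0.882 to 0.986). RC4 was 1.66-fold above AS (1.57 to 1.75). Relative to the median gene, Hk2 was 0.82 above NT on the log2 scale at RC4, and 9.24% of all genes had a higher ratio.

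Hk2 lies at chr6:82675019-82724448 on the minus strand of mm9, and its reads were assigned to a pair of polyadenylation sites (PASs) that lie 49169 nt apart. One is at the annotated 3′ end of the gene. The other is in the first exon, within the annotated untranslated exon sequence. The last 30 bases up to the site at the 3′ end are given with the AATAAA hexamer in capitals, and for the first-exon site the 30 bases around it are given with runs of at least 6 A in capitals, to show the bases beside each site. The first-exon site also has a hexamer, ATTAAA, which starts 10 bases before it and overlaps the first of these runs.
Hk2 3′ end, chr6:82675019-82675048: ttAATAAAttttaacttttttttttcaaaa
Hk2 first exon, chr6:82724173-82724202: ttgtgattAAAAAAAttgAAAAAAAgaaaa
Of the 20 bases after the first-exon site 16 are A, against 4 after the site at the 3′ end. Shares of reads per site are the authors' model estimates, and the RPM of a site is the gene's RPM times its share. Intervals at single sites therefore leave out error in assigning reads to sites. The first-exon site took 43.2% of the reads in NT, 47.9% in AS, 50.5% at RC4 and 44.1% at RC8. In RPM it was at 48.7 in NT, 47.1 in AS, 82.2 at RC4 and 46.4 at RC8, so RC4 alone stood out and was 1.68-fold above NT (1.56 to 1.81). The site at the 3′ end was at 64.1 in NT, 51.2 in AS, 80.6 at RC4 and 58.8 at RC8, which is 1.24-fold above NT at RC4 (1.16 to 1.33). Both sites had their highest level at RC4, and the larger share of that difference lay at the first exon. Whether the first-exon reads come from mRNA that ends there or from priming on these A runs was not tested. Over all genes, 20 PASs of a first exon took 40% or more of the reads of their gene in NT, of 56 first-exon PASs listed in the table of AS.

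Gpi1, the isomerase that makes fructose 6-phosphate, was at 111 RPM in NT, 105 in AS, 114.6 at RC4 and 101 at RC8. By RPM the RC4 interval of the fold over NT (0.973 to 1.09) included no change, and relative to the median gene RC4 was 0.34 above NT on the log2 scale. Pfkl, the liver-type subunit of phosphofructokinase, the main control point of the pathway, was at 26.0 RPM in NT, 27.3 in AS, 18.9 at RC4 and 17.6 at RC8. NT and AS overlapped, with an interval of 0.934 to 1.18 for AS over NT, and both recovery libraries were lower. NT was 1.38-fold above RC4 and 1.47-fold above RC8, just short of 1.5-fold, at 585 reads in NT and 405 at RC8. Relative to the median gene Pfkl was at −0.16 at RC4 on the log2 scale.

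Aldoa cleaves fructose 1,6-bisphosphate. It was at 227 RPM in NT, 257 in AS, 261 at RC4 and 217 at RC8, with AS and RC4 about equally above NT and RC8 just below it. Relative to the median gene Aldoa was 0.50 above NT at RC4 on the log2 scale. Tpi1, which interconverts the triose phosphates, was at 403 RPM in NT, 455 in AS, 380.1 at RC4 and 324 at RC8. Its order across libraries was AS, NT, RC4 and RC8 from high to low, with no overlap of the counting intervals, and on the scale of the median gene RC4 stood 0.22 above NT instead of below it. Pgk1, which makes the first ATP of the pathway, was at 572 RPM in NT, 637 in AS, 603 at RC4 and 558 at RC8. By RPM Pgk1 was 1.11-fold of NT in AS and 1.05-fold at RC4, and relative to the median gene it was 0.20 above NT in AS and 0.38 above it at RC4 on the log2 scale.

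Eno1, the enolase that makes phosphoenolpyruvate, was at 36.4 RPM in NT, 38.1 in AS, 30.2 at RC4 and 29.4 at RC8. AS could not be told from NT at this depth (0.9501 to 1.15), and RC4 and RC8 were lower by nearly the same amount. The 2 count columns of the libraries, taken alone, gave unlike log2 changes for Eno1. These were −0.10 and 0.24 in AS, −0.45 and −0.08 at RC4, and −0.45 and −0.15 at RC8. On the scale of the median gene the RC4 value of Eno1 was 0.03 above NT. Ldha was at 628 RPM in NT, 675 in AS, 535 at RC4 and 372 at RC8. RC8 was clearly the lowest of the 4 libraries, and AS the highest. The fold of RC8 over NT was 0.592 (0.577 to 0.609), on 14189 and 8561 reads, and 7.31% of all genes were lower still. RC8 over RC4 was 0.696-fold (0.677 to 0.716). In RC4 Ldha was 0.24 below NT on the log2 scale by RPM and 0.07 above it relative to the median gene.

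Pgam1, the phosphoglycerate mutase, had 222 reads in NT, 183 in AS, 134 at RC4 and 142 at RC8. By RPM these are 9.83, 8.15, 5.85 and 6.17. Both recovery libraries were low, at 0.594-fold of NT at RC4 (0.476 to 0.739) and 0.628-fold at RC8 (0.505 to 0.779). The RC4 value relative to the median gene was −0.45 on the log2 scale, short of 1.5-fold. A processed copy of the gene, Pgam1-ps2 on chromosome 7, held 18563 reads in NT, and the last 30 bases that both genes share are the same in sequence, with the AATAAA hexamer in capitals.
Pgam1, chr19:41993121-41993150: atcagtatAATAAAggagtgatgtgcaata
Pgam1-ps2, chr7:28253905-28253934: atcagtatAATAAAggagtgatgtgcaata
The match runs over 247 bases at the 3′ end with 0 mismatches, so reads of the 2 loci cannot be told apart there. Pgam1-ps2 was at 822 RPM in NT, 903 in AS, 647 at RC4 and 609.8 at RC8, which is 0.14, −0.35 and −0.43 relative to NT on the log2 scale. With the reads of both loci added, the log2 change was 0.13 in AS, −0.35 at RC4 and −0.43 at RC8, and neither recovery library was past 1.5-fold. The calls for Pgam1 at 1.5-fold thus rest on the way the reads were divided between the loci. Copies were searched with the 250 bases before the most used site outside a first exon. For Tpi1 and Eno1 this is the proximal site, and the bases from there to the distal site were not searched. Loci other than the gene itself, with at least 95% identity over at least 90% of these bases, numbered 4 for Pgam1, Pgam1-ps2 among them. They numbered 3 for Pgk1, 2 for Tpi1, 1 for Gpi1 and 0 for the remaining enzymes. With looser limits on identity and length, hits numbered 28 for Ldha, 14 for Aldoa, and 13 each for Tpi1 and Eno1. They then numbered 8 for Pgam1, 5 for Pgk1, 2 for Gpi1 and 0 for Hk2 and Pfkl.

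Among 3147 genes that reached 1000 reads in every library, the 3 with the smallest distance to the summed enzymes over the 3 log2 changes were Vim, at a distance of 0.03, Ddah1 at 0.04 and Atp5e at 0.04. Vim, an intermediate filament protein, was at 0.13 in AS, −0.02 at RC4 and −0.32 at RC8.

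Of the 9 enzymes, 5 had more than 1 PAS, namely Hk2, Aldoa, Tpi1, Eno1 and Ldha, while Gpi1, Pfkl, Pgk1 and Pgam1 had 1 in each table. The listed position of that PAS in Pfkl and in Gpi1 was not the same in the table of AS as in those of RC4 and RC8. A PAS changed its share of the gene's reads by at least 10 percentage points in 0 of the 5 enzymes in AS, in 1 (Aldoa) at RC4 and in 1 (Eno1) at RC8. The same was so for 15.2%, 29.0% and 26.9% of all genes with more than 1 PAS. The score RED, the log2 ratio of distal to proximal reads in the treated library over that in NT, was computed from the deposited fractions and is given ± 1 standard error of counting, not as a 95% interval. The fractions are model estimates and not counts, and reads at a PAS are the gene's reads times the fraction. Errors and intervals of shares, PAS levels and RED thus leave out error in assigning reads to sites.

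**Figure D3:**
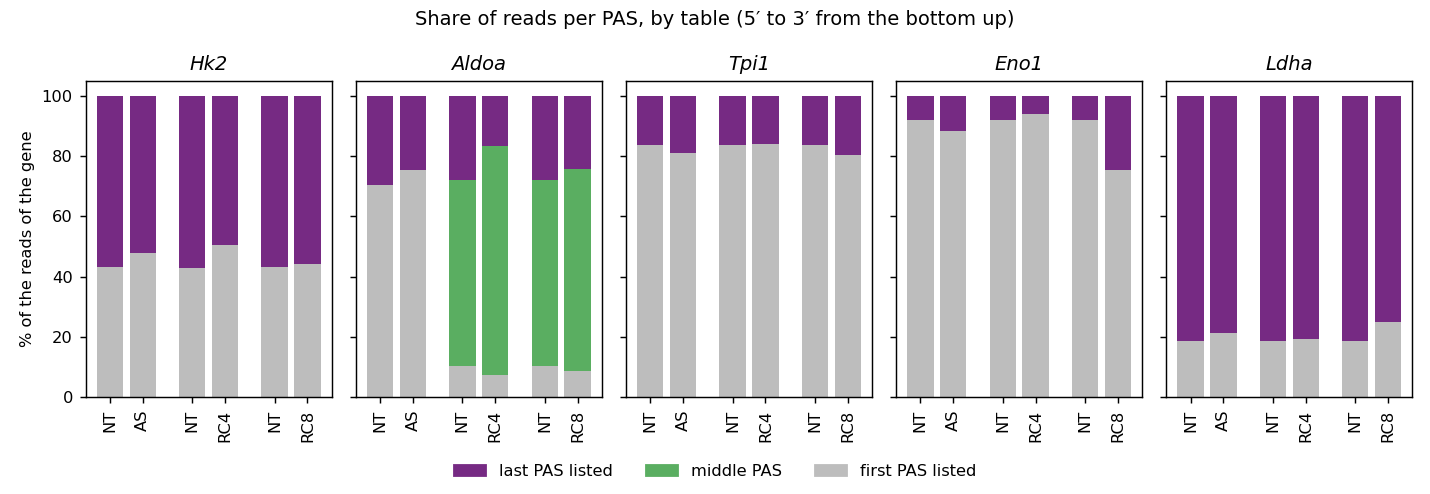
Share of reads per PAS for the 5 enzymes with more than 1 PAS, with NT beside the treated library of the same table. Colours give the order of the listed PASs from 5′ to 3′, and the table of AS lists other PASs of Aldoa than those of RC4 and RC8. The last PAS of Eno1 is largest at RC8 (24.6%), and that of Aldoa is smallest at RC4 (16.5%).

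Eno1 had the largest shift. Its PASs lie 238 nt apart on chromosome 4, plus strand, both in the 3′-most exon, and the gene spans chr4:149610830-149622988. The AATAAA hexamer, in capitals, is found before the distal site, and neither AATAAA nor ATTAAA occurs in the 40 bases before the proximal site.
Eno1 proximal, chr4:149622721-149622750: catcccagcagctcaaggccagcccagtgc
Eno1 distal, chr4:149622959-149622988: aaaAATAAAagccgcagaagtccaccagtg
The distal site took 7.79% of the reads in NT (6.05 to 9.85%), 11.7% in AS, 5.81% at RC4 and 24.6% at RC8 (21.5 to 28.1%). RC8 stood apart from the other 3 libraries, while the interval of NT overlapped those of AS and RC4. RED was 0.65 ± 0.24 in AS, −0.48 ± 0.30 at RC4 and 1.95 ± 0.23 at RC8. The 95% interval of RED was 0.17 to 1.12 in AS, which excluded 0, and −1.07 to 0.11 at RC4, which included it. In RPM the distal site was at 2.83 in NT, 4.46 in AS, 1.75 at RC4 and 7.26 at RC8, and the proximal site at 33.5, 33.6, 28.4 and 22.2. The distal site was thus 2.56-fold above NT at RC8 (1.91 to 3.47) while the proximal site was 0.661-fold of NT (0.590 to 0.741). By the estimated fractions, the distal reads numbered 64 in NT and 167 at RC8.

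Aldoa was the only one of the 5 with a shift past 10 points at RC4. The tables of RC4 and RC8 list 3 PASs in its 3′-most exon, on the minus strand of chromosome 7. The hexamer AATAAA, in capitals, occurs before the middle one, at the annotated end of the gene, and the last one lies 105 nt beyond that end.
Aldoa first, chr7:133938907-133938936: ctaaccagagctgaactaaggctgctccat
Aldoa middle, chr7:133938748-133938777: cactgccAATAAAcaactatttaaggggga
Aldoa last, chr7:133938643-133938672: acagtaaaaggaagggtttttttgaccaga
The middle site took 61.6% of the reads in NT and 76.0% at RC4, and 61.9% in NT and 67.0% at RC8. The last site took 28.0% in NT and 16.5% at RC4, and 27.8% and 24.2% in the table of RC8. RED of the last over the middle site was −1.07 ± 0.07 at RC4 and −0.31 ± 0.07 at RC8. In RPM the middle site was at 140.1 in NT and 198 at RC4, and the last one at 63.7 and 43.0, so these sites moved in opposite directions. The table of AS lists a site 25 nt before the middle one in its place and no first site, with 29.5% at the last site in NT and 24.6% in AS, for a RED of −0.36 ± 0.06.

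Ldha kept most of its reads at the distal of 2 PASs, 150 nt apart at the end of chr7:54096845-54110997. The distal site holds AATAAA, in capitals, and the proximal site none within 40 bases.
Ldha proximal, chr7:54110818-54110847: aacctggctccagtgtgtacgtccatgatg
Ldha distal, chr7:54110968-54110997: tgtcatgccaAATAAAaccttgaacagtga
The proximal site took 18.6% in NT, 21.3% in AS, 19.2% at RC4 and 24.9% at RC8, and RED was −0.24 ± 0.04, −0.06 ± 0.05 and −0.54 ± 0.05 in AS, RC4 and RC8, with 0 inside the 95% interval at RC4. In RPM the distal site was at 511 in NT and 279.6 at RC8 (0.546-fold), and the proximal site at 117 and 92.7 (0.793-fold). Both sites were lower at RC8, the distal site by more.

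**Figure D4:**
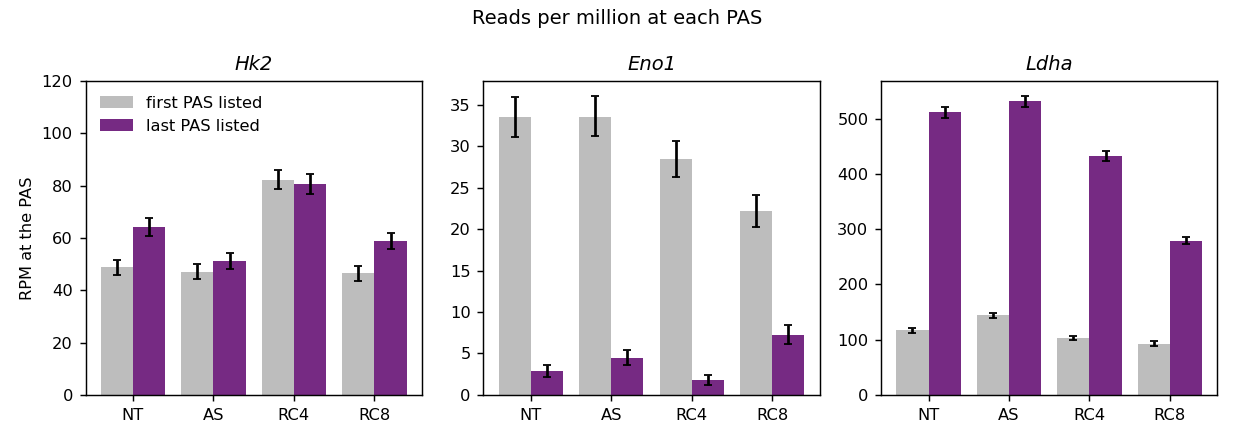
RPM at the first and the last PAS of Hk2, Eno1 and Ldha in the 4 libraries, with exact 95% Poisson intervals for counting error. Levels are the gene's RPM times the estimated share of the PAS, and the intervals leave out error in that share. Both sites of Hk2 are highest at RC4, the last site of Eno1 is highest at RC8 (7.26 RPM), and both sites of Ldha are lowest at RC8.

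Tpi1 shifted the other way from Ldha, by a few points. Its distal site, 161 nt downstream, took 16.4% in NT, 18.9% in AS, 15.8% at RC4 and 19.7% at RC8, and RED was 0.25 ± 0.05, −0.06 ± 0.06 and 0.32 ± 0.06, again with 0 inside the 95% interval at RC4. Hk2 had a RED of −0.27 ± 0.08 in AS, −0.44 ± 0.07 at RC4 and −0.05 ± 0.08 at RC8, where the proximal site is the one in the first exon. Directions were therefore mixed. In RC8 the distal share was larger for Eno1 and Tpi1 and smaller for Aldoa and Ldha, and for Hk2 the interval of RED included 0. The hexamer AATAAA or ATTAAA, on the strand of the gene within 40 bases upstream, occurred at 8 of the 18 PASs listed for the enzymes (44.4%), beside 51.9% of all 21565 PASs. A run of at least 6 A from 15 bases before to 20 bases after the site occurred at 2 of 18, beside 9.98% of all PASs. An absent motif says only that these letters are not in the window.

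Other genes of the pathway were taken from fixed lists. Of 19 further isozymes and enzymes of glycolysis 9 had a row. In AS 1 of them was at least 1.5-fold higher and 0 lower, at RC4 2 were higher and 2 lower, and at RC8 1 was higher and 2 lower. The median log2 change was 0.09, 0.01 and −0.27. At RC4, relative to the median gene, 3 were higher (Pfkp, Aldoc and Hk1) and 1 lower (Bpgm). On that scale 1512 of all 10081 genes were at least 1.5-fold higher at RC4 and 1752 lower. Pkm, the pyruvate kinase gene, was at 1111 RPM in NT, 1229.6 in AS, 1121 at RC4 and 1051 at RC8. By RPM it was 1.11-fold of NT in AS (1.09 to 1.13). Relative to the median gene it was 0.31 above NT at RC4 on the log2 scale. Hk1, the constitutive hexokinase, was at 64.4 RPM in NT, 55.1 in AS, 91.9 at RC4 and 82.6 at RC8, so that RC4 was 1.42-fold above NT (1.33 to 1.52), and 0.81 above it on the log2 scale relative to the median gene.

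By RPM the 3 subunit genes of phosphofructokinase went apart in recovery. Pfkp, the platelet type, was at 8.32 RPM in NT, 8.29 in AS, 17.4 at RC4 and 17.0 at RC8, which is 2.09-fold and 2.04-fold of NT. Pfkm, the muscle type, was at 21.2 RPM in NT, 13.1 at RC4 (0.614-fold) and 15.6 at RC8 (0.734-fold). Relative to the median gene Pfkm was at −0.40 at RC4 on the log2 scale. Pfkl was below NT in both recovery libraries by RPM, as given above. Its log2 change at RC4 was −0.30 and −0.63 in the 2 count columns taken alone. Aldoc, the brain-type aldolase, was at 28.8 RPM in NT, 43.3 in AS, 51.9 at RC4 and 41.4 at RC8 and was 1.503-fold and 1.80-fold of NT in AS and RC4. The lowest ratio of the list was that of Bpgm, the bisphosphoglycerate mutase that makes 2,3-bisphosphoglycerate. It was at 157 RPM in NT, 175 in AS, 37.2 at RC4 and 60.4 at RC8, at 0.236-fold of NT at RC4 (0.218 to 0.254) and 0.384-fold at RC8. Ldhb, the B subunit of lactate dehydrogenase, was at 46.2 RPM in NT and 30.7 at RC8 (0.665-fold), so both subunit genes were past 1.5-fold below NT at RC8.

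Of 15 genes of glucose entry, lactate exit and control of the pathway 11 had a row in at least 1 table. In AS 0 were 1.5-fold higher and 1 lower, at RC4 2 higher and 2 lower, and at RC8 1 higher and 2 lower. On the scale of the median gene 2 were higher and 0 lower at RC4. Slc2a1, the glucose transporter GLUT1, was at 188 RPM in NT, 201 in AS, 343 at RC4 and 144 at RC8. RC4 was the highest by far and RC8 the lowest, at 1.82-fold (1.75 to 1.89) and 0.764-fold of NT. Pfkfb3, which makes the activator of phosphofructokinase, was at 9.56 RPM in NT, 9.22 in AS, 19.1 at RC4 and 10.2 at RC8, again with RC4 alone above the rest. Pfkfb2 and Pfkfb4, of the same enzyme family, were lower by RPM, Pfkfb2 at 0.400-fold of NT in AS and 0.640-fold at RC4, and Pfkfb4 at 0.605-fold at RC4. Slc16a1, the monocarboxylate transporter MCT1, was at 49.6 RPM in NT, 49.2 at RC4 and 25.05 at RC8 (0.505-fold). Hif1a, a transcription factor of the hypoxia response, was at 201 RPM in NT, 140.3 in AS, 137 at RC4 and 95.1 at RC8 and so was lowest at RC8, where it was 0.473-fold of NT. Tigar, a phosphatase that lowers fructose 2,6-bisphosphate, was 1.82-fold of NT at RC8.

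Hypoxia-inducible genes other than the enzymes, 9 of 10 with a row in at least 1 table, were past 1.5-fold in 0 cases above NT and 1 below in AS, 4 above and 1 below at RC4, and 1 above and 0 below at RC8. With the median gene set to no change 5 were above and 1 below at RC4. Ndrg1, a stress-inducible gene, was at 48.7 RPM in NT and 136 at RC4, and Vegfa, the vascular growth factor, at 56.5 and 116. Both were near NT in AS (0.931-fold and 0.927-fold). Ankrd37 was 1.76-fold of NT at RC4, and Ero1l, an oxidase of the endoplasmic reticulum, was 0.660-fold in AS and 1.61-fold at RC4. Egln1, a prolyl hydroxylase that marks HIF1A for degradation, was lower, at 0.503-fold of NT at RC4. Egln3, of the same family, was 1.52-fold at RC8. In the pentose phosphate pathway all 7 genes had a row. Taldo1, transaldolase, was at 207 RPM in NT, 218 in AS, 322 at RC4 and 496 at RC8, or 1.56-fold and 2.40-fold of NT in recovery, and it was the only one of the 7 past 1.5-fold above NT at RC8. Rpe, the ribulose-phosphate epimerase, was at 0.525-fold of NT at RC4 and was the only one past 1.5-fold below. Of 15 genes of pyruvate dehydrogenase and pyruvate import 11 had a row, and 1 each was past 1.5-fold in AS (Pdp1, lower), RC4 (Pdk1, lower) and RC8 (Pdhb, higher). Set against the median gene, 1 of them (Pdhb) was higher at RC4 and 0 were lower. Of 7 gluconeogenesis genes 4 had a row, with 0 past 1.5-fold in AS, 1 at RC4 (Fbp1, higher) and 1 at RC8 (Pcx, lower). By RPM, counts for lists this small lie beside the shares of all genes given above. These are 8.04% higher and 31.8% lower at RC4, and 11.3% and 11.9% at RC8. List counts relative to the median gene at RC4 lie beside 1512 of 10081 genes higher and 1752 lower on that scale. Nothing particular to a list is drawn from the counts on either scale.

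**Figure D5:**
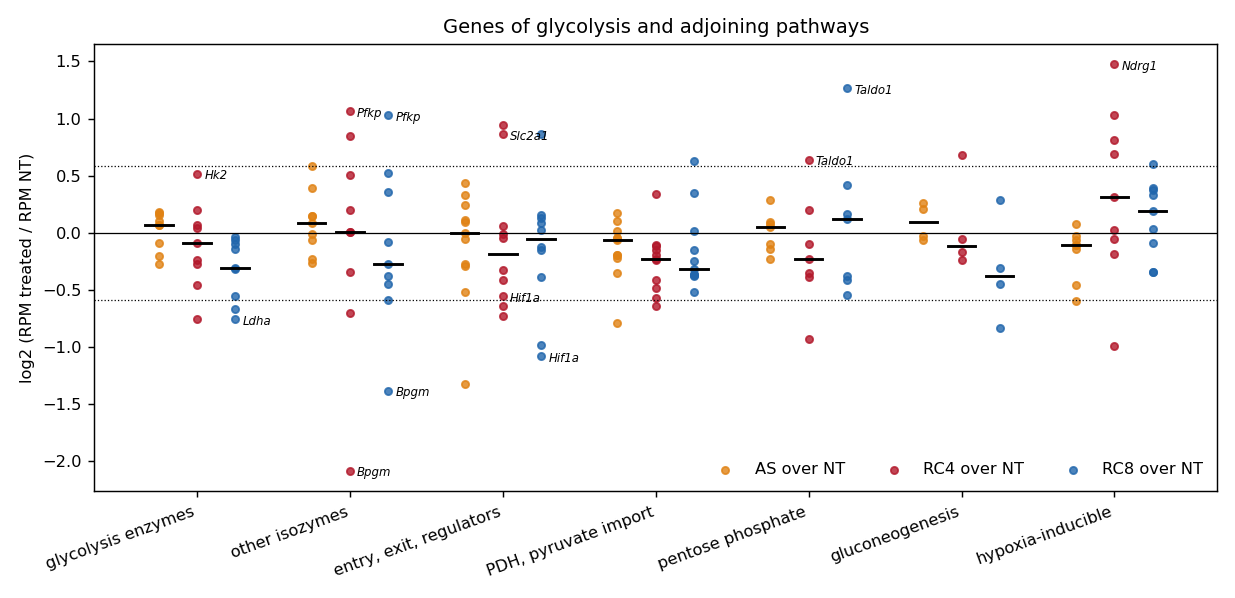
Log2 ratio of RPM over NT for each gene with a row in 7 lists, in AS, RC4 and RC8, with the median of each list as a black bar and dotted lines at 1.5-fold. The 9 glycolysis enzymes lie between −0.76 and 0.52, and Bpgm (−2.09) and Ndrg1 (1.47), both at RC4, lie at the ends of the plot.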

How the data were processed

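NIH3T3 cells were profiled with 1 QuantSeq FWD library per condition (4 libraries, and 4 QuantSeq REV libraries not analysed here). According to the study's methods and the submitters' processing notes, the authors trimmed reads with bbmap, mapped them with STAR 2.5.2a to mm9, allowing up to 20 multiple mappings, and ran MAAPER with PolyA_DB v3, keeping genes with at least 50 reads and PASs at a proportion of 5%. Multi-mapped reads can move between a gene and its copies. For each of 3 comparisons with NT the authors deposited read counts per gene, not normalized, in 2 columns per library, and the fraction of each gene's reads at each PAS. MAAPER estimates these fractions from the distances of reads to PASs. Which column is NT follows from the methods' order of conditions. Other deposited columns hold the authors' own comparisons (p-values, RLD and RED scores) and were not used. The number of unmapped per-sample columns was 0.

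Over genes with reads in both, the 2 count columns of a library differed by no more than counting error or close to it (chi-square per degree of freedom 0.974 to 1.03). In each library 43 to 93 genes had 0 reads in 1 column and at least 50 in the other. That gap is beyond counting error, and these genes were left out of the check. The columns were added as 1 library, giving 22.4 to 23.0 M reads on genes. RPM, folds with exact binomial 95% intervals, Poisson intervals of levels, Clopper-Pearson intervals of shares and RED were computed with Python (numpy 2.4.6, pandas 2.3.3, scipy 1.17.1), and TMM factors with edgeR 4.0.16 as an alternative scale. NT was taken from the same table as the treated library, and 74.1 to 74.8% of shared genes had equal NT reads between tables. All comparisons share the NT library. Without replicates no test was made, and called means at least 1.5-fold or at least 10 percentage points. The RPM and interval script was tested on simulated data. Gene positions come from GENCODE vM1, sequences from the mm9 genome, and copies were searched with blastn 2.17.0. All 9 enzymes were described in full. Of the pathway lists, genes past 1.5-fold by RPM were named, and Pkm, Hk1 and the RED examples were singled out after their values were seen. Genes most like the summed enzymes were the 3 nearest by Euclidean distance. The enzymes and the lists were chosen with earlier results of these data known. Alternatives covered scaling, totals, count columns, the source of NT, limits and PAS filters.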

Additional observations from a re-analysis of the deposited data

Results flagged for a closer look

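For 5 enzymes the log2 change over NT had opposite signs at different times, and in each of them the counting intervals of at least 1 higher and 1 lower value excluded no change. With 1 library per condition the difference between times was not tested. Hk2 was at −0.20 in AS, 0.52 in RC4 and −0.10 in RC8. Ldha was at 0.10, −0.24 and −0.76, and Tpi1 at 0.18, −0.09 and −0.32. Aldoa was at 0.18, 0.20 and −0.07, and Pgk1 at 0.16, 0.07 and −0.04. Relative to the median gene the RC4 values of Ldha and Tpi1 were 0.07 and 0.22, above NT instead of below, so that in these genes the sign in RC4 depends on the scale. The signs in AS and RC8 were the same under each scaling tried. With the study's library totals, however, the RC8 values of Pgk1 and Aldoa were −0.015 and −0.044, within the width of their counting intervals, so that at RC8 neither could then be told from NT.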

How the results depend on the processing

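No paired analysis was possible because each condition has 1 library and the labels give no replicate to pair. Under the alternatives a summed level or a single enzyme had to stay within its counting interval, and a count within 1.5 times the count. A median level change had to stay between the second lowest and second highest enzyme, a spread between enzymes and not counting error. A median PAS change had to stay within the range of the enzymes with more than 1 PAS. By these limits 135 values of the summed level, the medians and the counts stayed and 27 did not. Among single enzymes 192 values stayed and 30 did not. The called values, Pgam1 at RC4 and RC8 and Ldha at RC8, kept their sign. Values short of 1.5-fold changed sign under some alternative for Ldha, Tpi1 and Eno1 at RC4. The same was so for Pgam1, Eno1 and Pfkl in AS. The summed log2 change in AS was 0.16 with the median gene set to no change and 0.16 with TMM factors. In RC4 the summed change was 0.29 and 0.28 under these scales, −0.039 with the study's library totals, −0.10 with Pgam1-ps2 added to Pgam1 and −0.038 with Hk2 counted at its 3′ end alone, and the median change was 0.22 and 0.20. The number of enzymes 1.5-fold higher in RC4 was 1 under both scales, Hk2, and 1 at the lower of the fold limits tried. The number lower in RC4 was 0 under both scales, 0 with Pgam1-ps2 added, 0 at 2-fold, 2 with the second count column alone (Pgam1 and Pfkl) and 2 at the lower limit. In RC8 the summed change was −0.28 with the study's totals and −0.33 with Pgam1-ps2, and the number lower was 1 with the first count column alone, 1 with Pgam1-ps2 (Ldha in both) and 0 at 2-fold. Enzymes with a PAS past the limit numbered 2 in RC4 (Aldoa and Hk2) and 3 in RC8 (Aldoa, Eno1 and Ldha) at 5 points, and 0 in both at 20 points. The cause was not tested beyond what each alternative leaves out. Depth limits Pgam1 and the distal site of Eno1 most, and 1 library per condition limits every value.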
